A study of Mus musculus with 6 samples.

Results

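The collagen genes of the liver were examined in 3 double knockout mice, described by the submitters as hepatocyte-specific fxr-/- shp-/-, and in 3 control mice of genotype Fxrfl/fl Shpfl/fl. Members were all rows of the deposited expression table whose gene symbol is Col, a number, the letter a and a number, which gave 44 of 48699 genes. Both groups were adult males on the c57bl/6 strain, aged 10 to 12 weeks, whose food was withdrawn overnight for 8 to 10 hours, and the columns of the deposited table name chow for both groups. The control mice carry the floxed alleles (flanked by loxP sites) of both genes. What drives the deletion in hepatocytes is not stated in the sources used here. FXR (gene Nr1h4) is a bile acid receptor of the nuclear receptor family, and SHP (gene Nr0b2) is a co-repressor of the same family that FXR is known to induce. Values are FPKM, fragments per kilobase of transcript and per 1e6 mapped fragments, so levels of different collagens can be set beside each other per length.

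Collagens are trimeric proteins of the extracellular matrix. Fibril-forming collagens such as types I and III build the interstitial fibres that accumulate in scarred liver, where stellate cells and portal fibroblasts are their main known source. Type IV collagen forms the sheet of basement membranes, and types XV and XVIII, the multiplexins, sit at the basement membrane zone. Hepatocytes are a known source of type XVIII in the liver. By chain, 11 members are fibril-forming, 6 are type IV, and 27 belong to other classes.

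The deleted genes went with the labels, and both passed the threshold (adjusted p = 0.000277 for Nr0b2 and 0.0172 for Nr1h4 in limma). Nr0b2 was at 0.216, 0.0734 and 0.293 FPKM in double knockout livers, against 14.7, 17.6 and 18.7 FPKM in control livers. Nr1h4 was at 21.1, 15.5 and 22.0 FPKM in double knockout livers, against 59.8, 71.8 and 68.0 FPKM in control livers. The steps between the lowest values correspond to depths of 13.2 to 14.1 fragments, times 1e6, per library. Hepatocyte markers marked the tissue, with Alb between 17009 and 34609 FPKM in double knockout livers and between 37008 and 43645 FPKM in control livers. Control replicate 3 stood apart: its log2 values correlated with those of the other controls at 0.952 and 0.955 across genes, against 0.983 between those controls. Calls of members and named genes that turn on it are given with and without it. The libraries are of whole liver, in which fewer cells of a type and less RNA per cell cannot be told apart.

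No collagen passed the test between the groups. Of the 44, 16 averaged 0.5 FPKM or more across the 6 libraries and were tested with limma, 22 lay below that mean, and 6 were listed at 0 in every library (Col2a1, Col9a2, Col10a1, Col19a1, Col26a1 and Col28a1, of which the first 3 are known from cartilage). At a limma adjusted p under 0.05, 0 of the 16 were called, where 0.313% of the 11810 genes tested were. At an unadjusted p under 0.05, 4 of the 16 had higher values in double knockout livers (Col4a2, Col4a1, Col18a1 and Col15a1) and none was lower, where 14.9% of all tested genes passed that level in either direction and 6.97% were higher. The log2 fold change, double knockout minus control on the log2(FPKM + 1) scale, was positive for 12 and negative for 4, with a median of 0.39, against a positive share of 49.2% and a median of -0.01 over all genes tested. For the collagens that lie near the filter, Col5a1 passed with a mean of 0.596 FPKM, and Col12a1 with 0.476 FPKM and Col5a2 with 0.433 FPKM did not. Col5a1 passed only through its double knockout mean of 0.737 FPKM, with a control mean of 0.456 FPKM. Its place among the 12 positive members is therefore no evidence of direction.

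**Figure D1:**
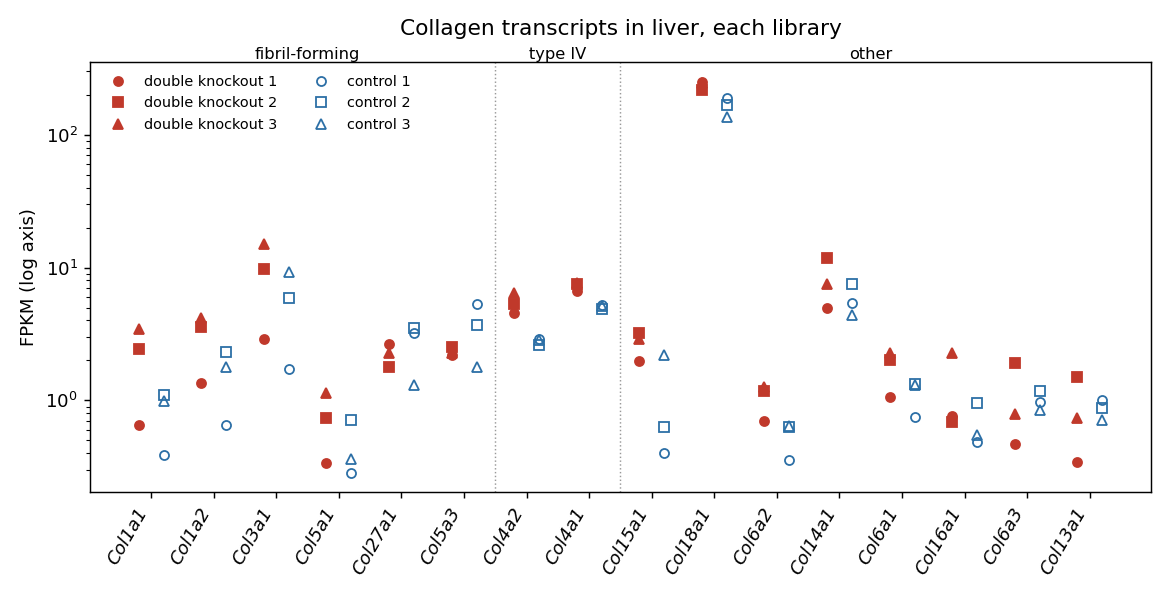
FPKM on a log axis for the 16 tested collagens, with filled red symbols for the 3 double knockout livers and open blue symbols for the 3 control livers, and 1 symbol shape per replicate number. Col18a1 lies far above the rest, between 137 and 250.4 FPKM, and the groups are apart only for Col4a1, Col4a2, Col18a1 and Col6a2.

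Col18a1 was by far the most abundant collagen transcript. It encodes the α1 chain of type XVIII collagen, a heparan sulfate proteoglycan whose C-terminal fragment is endostatin (chromosome 10, 77052178 to 77166548, GRCm38). It measured 250.4, 218 and 245 FPKM in double knockout livers, against 190.5, 167 and 137 FPKM in control livers. Every double knockout value lay above every control value, which was so for 11.3% of all genes tested. The means were 238 ± 17.1 FPKM in double knockout livers and 165 ± 26.9 FPKM in control livers (SD, n = 3 each), a ratio of 1.44. On the log2 scale the difference was 0.54 with an SE of 0.17, short of the threshold at a limma adjusted p of 0.240. Col18a1 made up 78.7% to 88.3% of the summed collagen FPKM in double knockout livers and 78.8% to 86.0% in control livers. The gene has 2 annotated start windows, both shown here as the annotated promoters of the most abundant member, and the gene-level FPKM does not separate the transcripts of each.

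The start windows of Col18a1 run from 250 bases before to 50 bases after an annotated start (RefSeq, GRCm38.p6, minus strand). Capitals mark the CCAAT box (CCAAT) and the GC box (GGGCGG), each searched on both strands. The upstream window, chr10:77166481-77166780, holds 1 CCAAT box, 3 GC boxes and 16 CpG dinucleotides, and the downstream window, chr10:77113656-77113955, holds neither box and 6 CpG.
Col18a1 upstream start: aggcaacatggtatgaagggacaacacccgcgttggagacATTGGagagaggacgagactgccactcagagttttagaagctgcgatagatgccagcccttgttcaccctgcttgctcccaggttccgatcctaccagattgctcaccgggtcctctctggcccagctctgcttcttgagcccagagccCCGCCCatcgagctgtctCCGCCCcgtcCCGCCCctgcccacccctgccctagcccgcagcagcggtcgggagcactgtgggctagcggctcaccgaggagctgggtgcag
Col18a1 downstream start: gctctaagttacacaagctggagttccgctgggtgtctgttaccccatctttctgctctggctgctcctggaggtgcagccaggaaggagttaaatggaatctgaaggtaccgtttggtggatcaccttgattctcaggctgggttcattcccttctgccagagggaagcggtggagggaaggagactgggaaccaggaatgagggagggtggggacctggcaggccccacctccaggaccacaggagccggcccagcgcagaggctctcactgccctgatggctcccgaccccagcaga

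Col15a1, the other multiplexin, had the largest positive difference of the 16 tested collagens on the log2(FPKM + 1) scale (chromosome 4, 47208161 to 47313167), while its ratio of mean FPKM, 2.50, was below that of Col1a1, 2.64. It measured 1.97, 3.21 and 2.89 FPKM in double knockout livers, against 0.402, 0.635 and 2.19 FPKM in control livers. The groups overlapped because control replicate 3 lay above double knockout replicate 1. The log2 fold change was 0.91 (SE 0.32), with a limma adjusted p of 0.268. Without control replicate 3 it was 1.27 and Col15a1 passed the threshold (adjusted p = 0.0387 in limma), the only collagen that did, in a fit that called 2.05% of all genes and 1.31% in this direction. Col15a1 also passed when libraries were weighted by their agreement with the model (adjusted p = 0.0367 in limma), a fit in which 4.77% of genes were called and 2.76% were called higher. The level in control replicate 1 rests on about 27 fragments.

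Both tested type IV collagens lay higher in each double knockout liver than in any control liver, without passing the threshold. The α1 and α2 chains of the common form of the basement membrane network are encoded by Col4a1 (chromosome 8, 11198423 to 11312826, minus strand) and Col4a2 (11312805 to 11449287, plus strand), which lie head to head and overlap by 22 bases in the annotation. Col4a1 measured 6.64, 7.53 and 7.59 FPKM in double knockout livers, against 5.20, 4.86 and 5.10 FPKM in control livers. Col4a2 measured 4.56, 5.36 and 6.46 FPKM in double knockout livers, against 2.88, 2.61 and 2.87 FPKM in control livers. For both genes all 3 double knockout values lay above all 3 control values. Col4a2 had a log2 fold change of 0.76 (SE 0.16, adjusted p = 0.132 in limma) and Col4a1 one of 0.45 (SE 0.14, adjusted p = 0.222 in limma). Weighting the libraries took Col4a2 past the threshold (adjusted p = 0.0364 in limma) and not Col4a1 (adjusted p = 0.0701 in limma).

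The proportion of the chains is given as a description, with no test. The ratio of Col4a1 to Col4a2 was 1.45, 1.40 and 1.18 in double knockout livers, against 1.81, 1.86 and 1.77 in control livers, and the groups did not overlap. The ratios of Col6a1 to Col6a2 and of Col3a1 to Col1a1 were also apart. Those of Col1a1 to Col1a2, Col15a1 to Col18a1 and Col3a1 to Col5a2 overlapped. The share of all gene pairs whose ratio is apart was not computed. The chains of specialised basement membranes were scarce in both groups. Col4a5 reached at most 0.302 FPKM in a double knockout liver and 0.273 FPKM in a control liver, and Col4a3, Col4a4 and Col4a6 stayed at or below 0.169 FPKM in every library.

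The promoter windows of Col4a1 and Col4a2 are shown because the genes are read from opposite strands of a shared region, chr8:11312777-11313076 on the minus strand for Col4a1 and chr8:11312555-11312854 on the plus strand for Col4a2, which overlap by 78 bases (RefSeq, GRCm38.p6). Col3a1, a fibril-forming collagen (chr1:45311288-45311587, plus strand), is set beside them. Capitals mark CCAAT boxes, GC boxes and matches to the letters of the TATA box (TATAAA), searched on both strands. The TATAAA match in the Col3a1 window begins at -117 from the annotated start.
Col4a1: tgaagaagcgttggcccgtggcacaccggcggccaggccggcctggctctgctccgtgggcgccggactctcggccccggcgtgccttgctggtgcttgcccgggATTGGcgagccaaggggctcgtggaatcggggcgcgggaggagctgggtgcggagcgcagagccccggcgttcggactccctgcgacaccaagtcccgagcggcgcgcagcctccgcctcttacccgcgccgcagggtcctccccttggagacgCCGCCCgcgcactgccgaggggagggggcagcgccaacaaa
Col4a2: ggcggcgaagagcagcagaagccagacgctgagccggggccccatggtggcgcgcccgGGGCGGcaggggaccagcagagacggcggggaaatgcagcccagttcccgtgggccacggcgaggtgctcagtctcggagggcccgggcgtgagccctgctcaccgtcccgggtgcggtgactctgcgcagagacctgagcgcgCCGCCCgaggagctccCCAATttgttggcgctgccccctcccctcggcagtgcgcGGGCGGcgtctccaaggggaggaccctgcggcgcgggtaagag
Col3a1: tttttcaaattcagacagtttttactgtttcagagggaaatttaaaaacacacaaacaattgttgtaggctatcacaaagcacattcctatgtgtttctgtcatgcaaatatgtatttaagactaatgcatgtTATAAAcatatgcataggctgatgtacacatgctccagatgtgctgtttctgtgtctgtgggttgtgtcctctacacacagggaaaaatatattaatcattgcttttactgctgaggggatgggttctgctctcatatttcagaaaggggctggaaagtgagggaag

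The Col4a1 window holds 37 CpG dinucleotides and the Col4a2 window 33, against a median of 7 over 32851 windows and 0 in the Col3a1 window. A window was held for 35 of the 44 collagen genes, 38 windows in all. A GC box was found in 23 of the 38 and in 35.7% of all windows, and a CCAAT box in 13 of the 38 and in 37.4% of all windows. A TATA box was found in 5 of the 38 and in 13.6% of all windows. Such matches describe the letters of these windows only.

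The type I and III genes varied widely between animals of a group. Col1a1 (chromosome 11, 94936224 to 94953042), the α1 chain of type I collagen, measured 0.655, 2.45 and 3.46 FPKM in double knockout livers, against 0.386, 1.10 and 0.999 FPKM in control livers. Col1a2 (chromosome 6, 4504814 to 4541544), the α2 chain of the same trimer, measured 1.35, 3.60 and 4.14 FPKM in double knockout livers, against 0.658, 2.30 and 1.79 FPKM in control livers. Double knockout replicate 1 fell among the controls for both genes, so the groups overlapped. The log2 fold change was 0.71 (SE 0.37, adjusted p = 0.409 in limma) for Col1a1 and 0.62 (SE 0.37, adjusted p = 0.455 in limma) for Col1a2. With 1 library left out, it ran from 0.41 without double knockout replicate 3 to 1.13 without double knockout replicate 1 for Col1a1, and from 0.33 without control replicate 1 to 0.97 without double knockout replicate 1 for Col1a2. In the lowest library, control replicate 1, these values rest on about 30 and 46 fragments.

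Col3a1 (chromosome 1, 45311538 to 45349706), whose homotrimer accompanies type I in liver fibres, was the most abundant fibril-forming transcript on average. It measured 2.89, 9.78 and 15.2 FPKM in double knockout livers, against 1.73, 5.86 and 9.34 FPKM in control livers. The 2 groups overlapped widely (log2 fold change 0.60 with an SE of 0.62, adjusted p = 0.679 in limma). Its log2 fold change ranged between 0.06, with control replicate 1 left out, and 1.19, with double knockout replicate 1 left out. Replicate 1 was the lowest library of its group for Col1a1, Col1a2 and Col3a1 alike, in double knockout and in control mice.

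The calls in the authors' deposited table were others than those near limma's threshold. The authors' deposited table called Col1a1 (q = 0.00226) and Col1a2 (q = 0.0144) higher in double knockout livers, and no other of the 16 members tested in it, where it called 4.58% of its 11844 tested genes in either direction and 2.85% in this one. The group FPKM behind those calls in the authors' deposited table were 2.19 in double knockout livers and 0.827 in control livers for Col1a1, and 3.03 in double knockout livers and 1.58 in control livers for Col1a2. The authors' deposited table gave Col4a2 a q of 0.0675 and Col15a1 a q of 0.0714. Col1a1 and Col1a2 overlap between the groups by library, and the members whose libraries do not overlap were called in neither analysis.

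The remaining fibril-forming collagens did not share a direction. Col5a1, a type V chain of mixed fibrils, measured 0.338, 0.739 and 1.13 FPKM in double knockout livers, against 0.286, 0.718 and 0.365 FPKM in control livers (log2 fold change 0.24, adjusted p = 0.635 in limma). With the length and GC trend of each library removed, its fold change was -0.02. Col5a3, another type V chain, measured 2.21, 2.50 and 2.28 FPKM in double knockout livers, against 5.36, 3.71 and 1.79 FPKM in control livers (log2 fold change -0.39, adjusted p = 0.550 in limma). Its double knockout values lay close together and inside the control range. Col27a1 measured 2.66, 1.78 and 2.29 FPKM in double knockout livers, against 3.24, 3.49 and 1.32 FPKM in control livers (log2 fold change -0.13, adjusted p = 0.849 in limma). For both, control replicate 3 was the lowest of the 6 libraries. Without it the log2 fold changes were -0.72 for Col5a3 (adjusted p = 0.0868 in limma) and -0.44 for Col27a1 (adjusted p = 0.192 in limma). Without control replicate 1 they were -0.12 for Col5a3 (adjusted p = 0.858 in limma) and -0.0011 for Col27a1 (adjusted p = 0.999 in limma).

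Of the fibril-forming collagens below the filter, Col5a2, a type V chain whose gene lies 24614 bases from Col3a1, reached 0.725 FPKM in a double knockout liver and 0.652 FPKM in a control liver. Col11a2, a type XI chain, was at 0.110, 0.0778 and 0.0885 FPKM in double knockout livers, against 0.228, 0.143 and 1.05 FPKM in control livers, with control replicate 3 far above the rest. Col11a1 and Col24a1 stayed at or below 0.0418 FPKM.

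**Figure D2:**
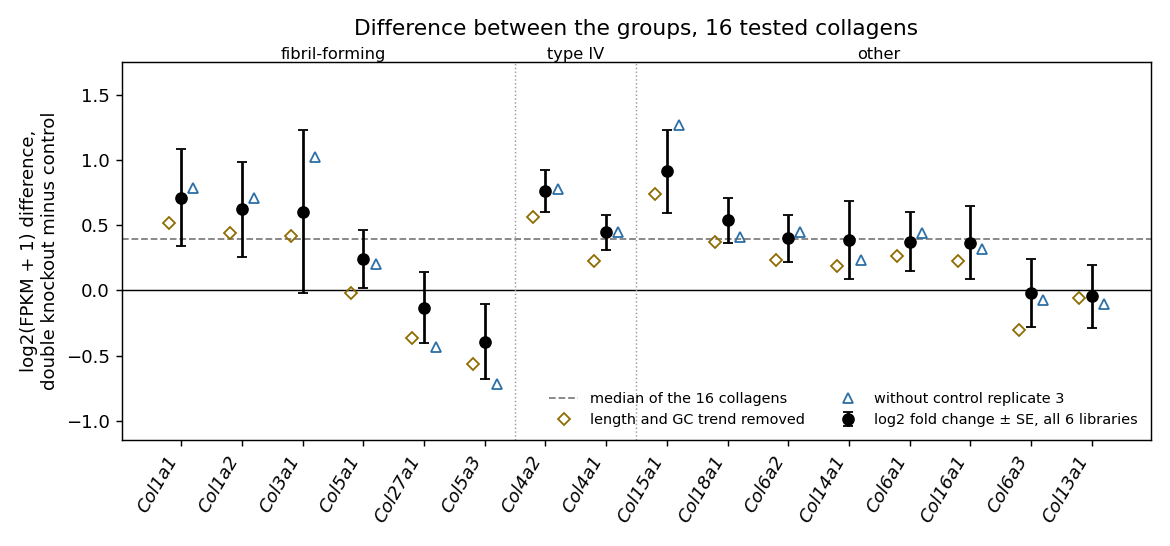
Difference in mean log2(FPKM + 1), double knockout minus control, for each tested collagen. Black points show the fit over all 6 libraries with its SE, open diamonds the fit with the length and GC trend of each library removed, and open triangles the fit without control replicate 3. The dashed line is the median of the 16, 0.39, and 12 of the 16 black points lie above 0.

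By class, the median log2 fold change was 0.42 over the 6 tested fibril-forming collagens (4 positive, 2 negative), 0.60 over the 2 tested type IV chains (both positive) and 0.38 over the 8 tested members of other classes (6 positive, 2 negative), against -0.01 over all genes tested. With the length and GC trend of each library removed, these medians were 0.20, 0.39 and 0.23. Col5a1, among the 4 positive fibril-forming members, passed the filter only through its double knockout values. The fibril-forming median was 0.11 without control replicate 1, 0.16 without double knockout replicate 3 and 0.69 without double knockout replicate 1. In the same 3 fits the type IV median was 0.62, 0.53 and 0.68, so in the last it was not the higher. The groups did not overlap for 0 of the 6 fibril-forming, both type IV and 2 of the 8 other members, with double knockout above control in each case, which was so for 11.3% of all genes tested. Summed over the 6 type IV genes, the level was 11.5, 13.3 and 14.4 FPKM in double knockout livers, against 8.22, 8.02 and 8.19 FPKM in control livers. Summed over the 11 fibril-forming genes, it was 10.5, 21.7 and 29.2 FPKM in double knockout livers, against 12.0, 17.6 and 17.3 FPKM in control livers. Summed over the 27 other genes, it was 262, 242 and 264 FPKM in double knockout livers, against 201, 181 and 148 FPKM in control livers. The type IV and the other sums were apart between the groups and the fibril-forming sums were not. Without Col18a1 the other sums overlapped, and the type IV sums are nearly all Col4a1 and Col4a2. The ratio of the fibril-forming to the type IV sum was 0.913, 1.63 and 2.03 in double knockout livers, against 1.46, 2.19 and 2.11 in control livers, and overlapped.

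**Figure D3:**
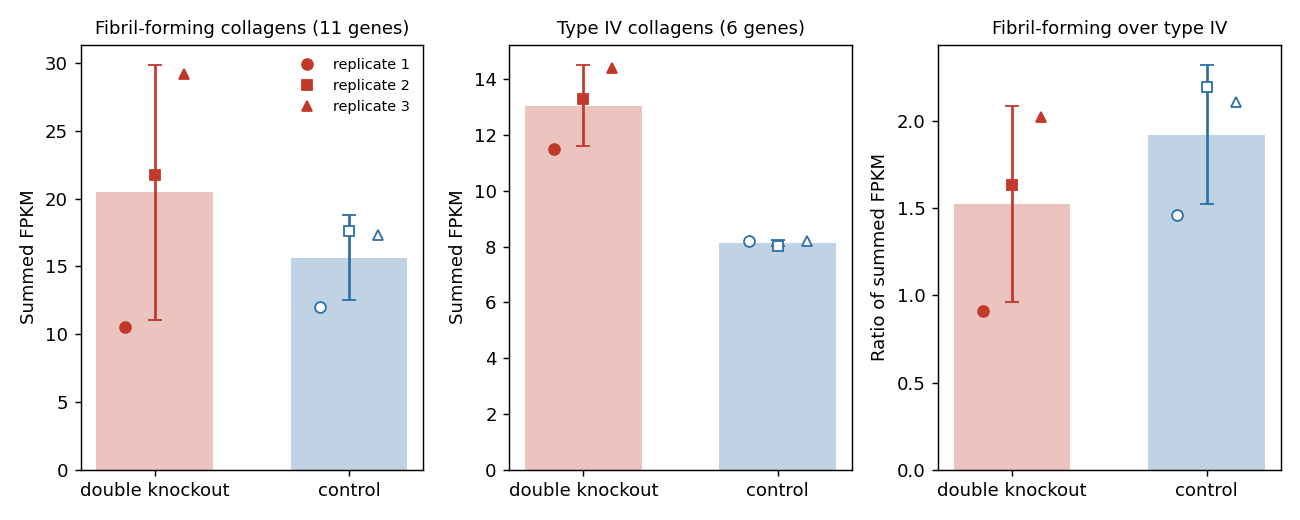
Summed FPKM of the fibril-forming and of the type IV collagens, and their ratio, in the 3 double knockout and the 3 control livers. Bars are group means, error bars are SD, and symbols are libraries. The type IV sum averaged 13.1 ± 1.46 FPKM in double knockout livers and 8.14 ± 0.110 FPKM in control livers.

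Type VI collagen, which forms beaded filaments around cells, gave 3 tested chains. Col6a1 measured 1.07, 2.02 and 2.27 FPKM in double knockout livers, against 0.746, 1.32 and 1.32 FPKM in control livers (log2 fold change 0.37, adjusted p = 0.471 in limma). Col6a2 measured 0.701, 1.17 and 1.25 FPKM in double knockout livers, against 0.355, 0.631 and 0.643 FPKM in control livers (log2 fold change 0.40, adjusted p = 0.357 in limma). The groups were apart for Col6a2 and overlapped for Col6a1, a neighbour of Col6a2 on chromosome 10. The ratio of Col6a1 to Col6a2 was 1.52, 1.72 and 1.81 in double knockout livers, against 2.10, 2.09 and 2.05 in control livers. The groups did not overlap, but the ratio rests on few fragments. In control livers there were about 40, 77 and 74 for Col6a1 and 23, 44 and 43 for Col6a2. How often such ratios are apart over gene pairs in general was not computed. Col6a3, the large α3 chain of the same trimer, measured 0.474, 1.91 and 0.787 FPKM in double knockout livers, against 0.979, 1.18 and 0.853 FPKM in control livers, and had the widest double knockout range of the 3.

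**Figure D4:**
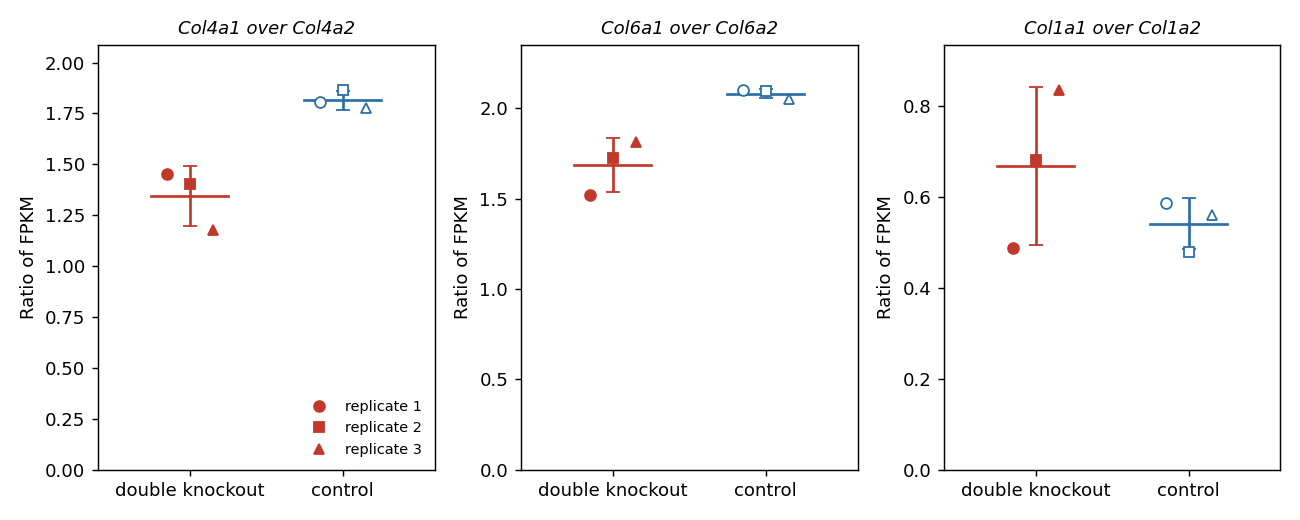
Ratio of FPKM of chains that assemble into 1 trimer, Col4a1 over Col4a2, Col6a1 over Col6a2 and Col1a1 over Col1a2, in double knockout and control livers. Horizontal lines are group means, error bars are SD and symbols are libraries. The first pair averaged 1.34 ± 0.148 in double knockout livers and 1.81 ± 0.0456 in control livers, and the Col1a1 to Col1a2 ratio overlapped between the groups.

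The ratio of Col1a1 to Col1a2, 0.487, 0.681 and 0.835 in double knockout livers and 0.586, 0.478 and 0.559 in control livers, stayed below 1 in every library. In the type I trimer, the α1 chain is known to outnumber the α2 chain.

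Of the fibril-associated collagens, which bind to the surface of fibrils, Col14a1 was the most abundant. It measured 5.004, 11.9 and 7.53 FPKM in double knockout livers, against 5.46, 7.49 and 4.38 FPKM in control livers (log2 fold change 0.39, adjusted p = 0.567 in limma). That difference was 0.11 without double knockout replicate 2 and 0.10 with library weights. Col16a1 measured 0.762, 0.682 and 2.27 FPKM in double knockout livers, against 0.487, 0.963 and 0.550 FPKM in control livers (log2 fold change 0.37, adjusted p = 0.563 in limma), and without double knockout replicate 3 its log2 fold change was 0.06. Col12a1, below the filter, reached 0.567 FPKM in a double knockout liver and 0.867 FPKM in a control liver. Col13a1, a transmembrane collagen, measured 0.343, 1.505 and 0.735 FPKM in double knockout livers, against 1.00, 0.877 and 0.710 FPKM in control livers, with a mean of 0.861 FPKM in double knockout livers and 0.862 FPKM in control livers. The other 19 members with any signal did not exceed 0.494 FPKM in a library. Among them, Col23a1, a transmembrane collagen, was at 0.229, 0.313 and 0.0356 FPKM in double knockout livers, against 0.0380, 0.0235 and 0.0122 FPKM in control livers.

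Across the 16 tested members, double knockout replicate 3 was the highest library for 9, double knockout replicate 2 for 4, and double knockout replicate 1, control replicate 1 and control replicate 2 for 1 each. Control replicate 1 was the lowest for 8. Double knockout replicate 1 was the lowest for 2, Col6a3 and Col13a1.

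Collagen transcripts are long, and the group difference moved with length and base composition. The longest annotated transcript of the tested members ran from 3162 to 10106 bases, and all 16 lay above the median of 3142 bases over tested genes. With the trend of each library on transcript length and GC content removed, the median log2 fold change of the 16 was 0.23 against 0.39 without it, and 11 were positive. Col4a1 was then at 0.22, Col4a2 at 0.56 and Col18a1 at 0.37.

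Enzymes that build, cleave and degrade collagen were read from the same fit, and 0 of 107 tested genes of 14 companion lists passed limma's threshold, where 0.313% of all genes tested did. At an unadjusted p under 0.05 there were 13 of the 107, where 14.9% of all genes tested passed in either direction. Of the 13, only Tpm2 was lower in double knockout livers, and 6.97% of all genes tested were higher at that level. The authors' deposited table called 10 of the listed genes, 9 of them higher and 1 lower in double knockout livers. Over all its tested genes it called 4.58% in either direction and 2.85% higher. Of the genes that hydroxylate, fold and export procollagen in the endoplasmic reticulum, 5 of 13 were positive (median -0.02). P4hb, the β subunit of prolyl 4-hydroxylase and a disulfide isomerase, measured 417, 361 and 449 FPKM in double knockout livers, against 471, 454 and 784 FPKM in control livers. Every double knockout value of P4hb lay below every control value, which was so for 11.6% of all genes tested (log2 fold change -0.44, adjusted p = 0.442 in limma). Without control replicate 3 the log2 fold change of P4hb was -0.18 (adjusted p = 0.531 in limma). Ppib, a prolyl isomerase, averaged 240.2 ± 33.5 FPKM in double knockout livers and 317 ± 99.8 FPKM in control livers (SD, n = 3 each). Serpinh1, the collagen chaperone HSP47 (picked with its values known) averaged 4.38 ± 1.45 FPKM in double knockout livers and 4.87 ± 1.74 FPKM in control livers (SD, n = 3 each). Mia3, also called TANGO1, which packs procollagen into export carriers, was likewise picked with its values known. It measured 16.3, 23.2 and 29.2 FPKM in double knockout livers, against 8.06, 4.27 and 15.98 FPKM in control livers (log2 fold change 1.32, adjusted p = 0.234 in limma). Mia3 passed without control replicate 3 (adjusted p = 0.0458 in limma), and the authors' deposited table called it higher (q = 0.00121).

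For cleavage and cross-linking, all 4 tested genes were positive (median 0.39). Bmp1, the procollagen C-proteinase, measured 39.1, 35.9 and 41.6 FPKM in double knockout livers, against 26.7, 29.6 and 24.2 FPKM in control livers, without overlap (log2 fold change 0.52 with an SE of 0.14, adjusted p = 0.192 in limma). Pcolce, the protein that enhances that cleavage, measured 5.57, 10.7 and 10.5 FPKM in double knockout livers, against 1.82, 4.08 and 6.49 FPKM in control livers (log2 fold change 1.01, adjusted p = 0.294 in limma). The authors' deposited table called Pcolce higher (q = 0.00226). Of the proteases that break collagen down and their inhibitors, all 6 tested genes were positive (median 0.21). Mmp14, a membrane-bound collagenase, measured 14.3, 17.3 and 12.8 FPKM in double knockout livers, against 7.92, 11.2 and 11.1 FPKM in control livers, without overlap (adjusted p = 0.276 in limma). Double knockout values lay above control values without overlap, as for Bmp1 and Mmp14, in 11.3% of all genes tested. Mmp19, a secreted metalloproteinase, averaged 21.9 ± 1.28 FPKM in double knockout livers and 18.005 ± 3.52 FPKM in control livers (SD, n = 3 each).

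Of the collagen receptors, all 5 tested genes were positive (median 0.40). Itgb1, the β1 integrin subunit shared by the collagen-binding integrins, measured 66.0, 66.2 and 60.9 FPKM in double knockout livers, against 42.5, 39.5 and 48.3 FPKM in control livers (log2 fold change 0.56 with an SE of 0.14, adjusted p = 0.173 in limma). Its partner Itga1 averaged 2.63 ± 0.156 FPKM in double knockout livers and 1.95 ± 0.231 FPKM in control livers (SD, n = 3 each). Neither gene overlapped between the groups, with double knockout above control, which was so for 11.3% of all genes tested. With the length and GC trend removed, the log2 fold change of Itgb1 was 0.52. That of Itga1 was then 0.08 (adjusted p = 0.840 in limma), against 0.30 with the trend kept. Of the other proteins of basement membranes, 7 of 11 were positive, with a median of 0.03. The proteoglycans Agrn, at 5.73 ± 0.515 FPKM in double knockout livers and 5.90 ± 2.45 FPKM in control livers, and Hspg2, at 3.01 ± 1.35 FPKM in double knockout livers and 2.87 ± 0.846 FPKM in control livers, were the most abundant (SD, n = 3 each).

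Of 9 tested proteins of the interstitial matrix, 4 were positive (median -0.01). Fn1, fibronectin, which hepatocytes secrete into plasma, measured 346, 277 and 315 FPKM in double knockout livers, against 199, 209 and 116 FPKM in control livers, without overlap (log2 fold change 0.88 with an SE of 0.25, adjusted p = 0.200 in limma). Values were apart in this direction for 11.3% of all genes tested. Dcn, the fibril-binding proteoglycan decorin, averaged 63.4 ± 30.2 FPKM in double knockout livers and 61.4 ± 20.3 FPKM in control livers (SD, n = 3 each). Of TGF-beta signalling, a known inducer of collagen genes, 12 of 13 were positive (median 0.18), with Smad4 at 8.94 ± 0.202 FPKM in double knockout livers and 8.20 ± 0.711 FPKM in control livers (SD, n = 3 each). Tgfbr2, its type II receptor, measured 9.44, 8.67 and 9.06 FPKM in double knockout livers, against 4.10, 2.90 and 5.44 FPKM in control livers (log2 fold change 1.00 with an SE of 0.20, adjusted p = 0.120 in limma). The authors' deposited table called Tgfbr2 higher (q = 0.00121), and it passed limma without control replicate 3 (adjusted p = 0.0289 in limma).

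Markers of the cells that make collagen are given beside these levels, and their part in the collagen differences was not tested. All 12 stellate cell markers were detected, 8 positive and 4 negative (median 0.23), and their sum was 34.5, 64.2 and 51.8 FPKM in double knockout livers, against 35.2, 48.8 and 47.3 FPKM in control livers. The library with the lowest stellate sum in each group, replicate 1, was also the lowest for Col1a1, Col1a2 and Col3a1. Colec11 averaged 15.5 ± 3.70 FPKM in double knockout livers and 15.9 ± 3.08 FPKM in control livers, and Reln averaged 8.93 ± 3.12 FPKM in double knockout livers and 5.58 ± 2.41 FPKM in control livers (SD, n = 3 each). Lrat, the retinol-storing enzyme of stellate cells (picked with its values known) measured 1.37, 3.47 and 2.30 FPKM in double knockout livers, against 1.06, 1.61 and 2.88 FPKM in control livers.

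**Figure D5:**
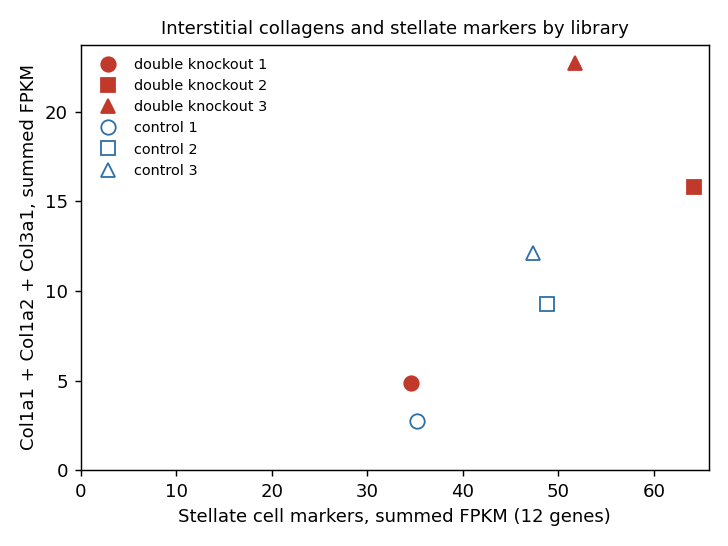
Summed FPKM of Col1a1, Col1a2 and Col3a1 (y) against the summed FPKM of 12 stellate cell markers (x), with filled symbols for double knockout livers and open symbols for control livers. Replicate 1 of each group lies lowest on both axes, at 4.89 collagen FPKM in the double knockout and 2.77 in the control.

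Of the 6 myofibroblast markers 4 were tested, 3 positive and 1 negative (median 0.24), and the sum ran from 6.67 to 12.8 FPKM in double knockout livers and from 7.51 to 14.3 FPKM in control livers. Acta2, the smooth muscle actin of activated stellate cells (picked with its values known) measured 0.960, 2.02 and 1.35 FPKM in double knockout livers, against 0.621, 0.913 and 1.03 FPKM in control livers (adjusted p = 0.423 in limma). Tagln averaged 4.27 ± 1.44 FPKM in double knockout livers and 2.54 ± 0.756 FPKM in control livers (SD, n = 3 each). Tpm2, a muscle tropomyosin, ran the other way, at 1.27, 1.73 and 1.91 FPKM in double knockout livers, against 9.27, 8.25 and 2.01 FPKM in control livers. Over all 6 libraries its log2 fold change was -1.33, short of the threshold (adjusted p = 0.247 in limma). It passed without control replicate 3 (log2 fold change -1.89, adjusted p = 0.00803 in limma), and the authors' deposited table called it lower. Of 8 markers of portal fibroblasts and mesothelium 3 were tested, 1 positive and 2 negative (median -0.12), and the sum ran from 3.83 to 4.70 FPKM in double knockout livers and from 3.59 to 5.21 FPKM in control livers. Entpd2 averaged 1.59 ± 0.119 FPKM in double knockout livers and 1.82 ± 0.211 FPKM in control livers, and Krt19 averaged 1.01 ± 0.127 FPKM in double knockout livers and 0.778 ± 0.368 FPKM in control livers (SD, n = 3 each). Krt19, the positive one of the 3, is also listed among the cholangiocyte markers.

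Sinusoidal endothelial cells are a known source of type IV collagen in the liver. Their 10 markers summed to between 45.7 and 93.4 FPKM in double knockout livers and between 68.0 and 83.6 FPKM in control livers, with 3 positive and 7 negative (median -0.06). Clec4g averaged 18.7 ± 7.38 FPKM in double knockout livers and 24.4 ± 4.72 FPKM in control livers, and Fcgr2b 13.5 ± 6.33 FPKM in double knockout livers and 16.7 ± 2.39 FPKM in control livers (SD, n = 3 each). The Kupffer cell markers summed to between 109 and 286 FPKM in double knockout livers and between 71.4 and 172 FPKM in control livers, with all 8 positive (median 0.63), among them Cd5l (52.1 ± 30.3 FPKM in double knockout livers and 27.0 ± 21.8 FPKM in control livers) and Clec4f (44.5 ± 24.6 FPKM in double knockout livers and 33.7 ± 13.3 FPKM in control livers; SD, n = 3 each). Of these 8, 4 were called higher in the authors' deposited table, where 2.85% of its tested genes were. The cholangiocyte markers summed to between 64.0 and 68.6 FPKM in double knockout livers and between 39.0 and 47.7 FPKM in control livers, most of it Spp1, and all 5 tested were positive (median 0.28). Spp1, the secreted matrix protein osteopontin, measured 55.2, 59.5 and 60.9 FPKM in double knockout livers, against 31.1, 34.3 and 42.6 FPKM in control livers, without overlap (log2 fold change 0.70, adjusted p = 0.146 in limma). Values were apart in this direction for 11.3% of all genes tested. Spp1 passed limma without control replicate 3 (adjusted p = 0.0370), with library weights (adjusted p = 0.0186) and with the length and GC trend removed (adjusted p = 0.0459), and it was called higher in the authors' deposited table (q = 0.0346). The 5 hepatocyte markers were all negative (median -0.37), with sums of 28262 to 48057 FPKM in double knockout livers and 53958 to 65081 FPKM in control livers.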

How the data were processed

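Liver mRNA of 3 double knockout and 3 control mice was measured in stranded mRNA libraries made from flash-frozen tissue, per the labels' protocols. Groups and replicate numbers came from the sample titles. The authors deposited FPKM per gene and library. A second deposited table holds their own group comparison, with FPKM per group, a test statistic (a score), a p-value and a q-value, per the file headers. Tools listed in the submitters' processing notes are Cuffdiff 2.2.1, STAR 2.4.2a, Picard 1.119, Trimmomatic and bcl2fastq 2.17.1.14, with mm10 (GRCm38) as the build and no role for any tool. Which annotation was used, and how strand and shared fragments were handled in counting, is not stated there. FPKM divides by transcript length and library total, so abundant transcripts and length-dependent loss shift other genes.

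FPKM values are not counts, so limma 3.58.1 in R 4.3.3 was run on log2(FPKM + 1), with its variance trend on, for the 11810 genes averaging 0.5 FPKM or more, with Benjamini-Hochberg adjustment over all of them and a threshold of 0.05. The scale understates the change of low genes. Symbols were unique among the 44 members. An exact permutation test of 3 against 3 cannot go below 0.1 and was not used. Each library was taken as 1 mouse, and limma p-values rest on the spread between the 3 libraries of a group. Depth and fragment numbers are approximate, read from the smallest FPKM steps in genes over 1500 bases with 1 transcript and from the longest GENCODE M21 transcript of each gene. Coordinates come from GENCODE M21 (GRCm38) and promoter windows from RefSeq (GRCm38.p6), which held 35 of the 44 members. Classes, 14 companion lists (160 of 161 genes found) and the members were chosen with earlier results of these data known. Each tested collagen, collagens above 0.5 FPKM in any library, up to 4 called or else the 2 most abundant genes of a list and the deleted genes are named by rule, and others are marked; Col4a3, Col4a4, Col4a5, Col4a6, Col11a1, Col23a1 and Col24a1 were also named after their values were seen. A gene that the rule would name is not reported here. The fit was tested on simulated data. The alternatives changed the pseudocount (0.1, 0.25), the filter (none, 2 FPKM) and the scaling, and added library weights, removal of the length and GC trend, the replicate number as a block, and fits without each library in turn, whose filter was taken over the libraries kept.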

Additional observations from a re-analysis of the deposited data

How the results depend on the processing

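Of 231 values of single tested collagens under the 15 alternatives, 221 kept their direction and side of the threshold, 3 passed it (Col4a2 and Col15a1 with library weights, Col15a1 without control replicate 3) and 7 turned sign. With library weights 2 collagens were called, without control replicate 3 there was 1, and under each other alternative there were 0. Over all genes, limma called 37. It called 2 with no filter on low values, 563 with library weights, 242 without control replicate 3 and between 2 and 6 without any other library. Of the companion genes, 5 were called with library weights, 1 (Spp1) with the length and GC trend removed and between 0 and 4 when a library was left out. Nr1h4 was past the threshold over all 6 libraries and not with no filter (adjusted p = 0.0654) or without any library other than control replicate 3. With no filter the median log2 fold change was 0.05 over 38 collagens. With a pseudocount of 0.1 the class medians were 0.63 for fibril-forming, 0.72 for type IV and 0.57 for other collagens. With the length and GC trend removed they were 0.20, 0.39 and 0.23 in that order. Sign changes of single genes are given with the log2 fold change under the alternative. With the length and GC trend removed they were Col5a1 (-0.018), Agrn (-0.23), Hspg2 (-0.25), Dcn (0.011) and Colec11 (0.091). With quantile normalization they were Agrn (-0.0064), Hspg2 (-0.043), Dcn (0.18) and Colec11 (0.017). With library weights it was Agrn (-0.22), and with median-of-ratios scaling Dcn (0.0063). With 1 library left out, log2 fold changes ranged from -0.44 to 0.040 for Col27a1, -0.30 to 0.19 for Col6a3, -0.28 to 0.17 for Col13a1, -0.31 to 0.22 for Agrn, -0.24 to 0.19 for Hspg2, -0.36 to 0.33 for Dcn, -0.19 to 0.15 for Colec11, -0.090 to 0.65 for Clec4f and -0.38 to 0.13 for Serpinh1. The causes were not tested. Same-numbered libraries of the 2 groups deviated from their group means together at correlations of 0.220, -0.0754 and 0.301. For unlike-numbered libraries these correlations ran from -0.321 to 0.254. Such values do not settle whether the numbers pair the animals. With the replicate number as a block, 50 genes and 0 collagens were called. The adjusted p of Col3a1 in limma was then 0.179, against 0.679 without the block. Depth limits the low members: the 19 that never exceeded 0.494 FPKM rest on at most about 35 fragments in a library.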
